A study of Mus musculus with 8 samples.

Results

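Genes of DNA replication and the cell cycle were examined in liver RNA of male C57Bl/6J mice given potassium sorbate, a food preservative salt. The set held 34 genes, taken by symbol from the 55487 genes of the count table. It covers origin licensing (11 genes), DNA synthesis and nucleotide supply (4 genes), the cyclins and kinases of G1 and S phase (7 genes), E2F1 and Rb (2 genes) and mitosis (10 genes). Gene expression was measured by sequencing of poly(A) RNA in 8 libraries. The 4 control libraries came from mice given water by gavage and the 4 sorbate libraries from mice given 17 mg of potassium sorbate the same way. All mice were about 10 weeks old, and livers were taken 4 hours after the gavage. The labels name no mutant allele and no further agent, and leave unsaid whether the libraries come from separate animals. The p-values therefore measure no more than the spread between these libraries, which may be technical.

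Dividing cells load the MCM2-7 helicase, a ring of MCM proteins, onto replication origins in G1 phase with the help of ORC, Cdc6 and Cdt1. Cyclin D with Cdk4, and then cyclin E with Cdk2, release E2F transcription factors from Rb family proteins, and E2F drives the genes of DNA synthesis. Cyclin B with Cdk1 starts mitosis. The adult liver is largely quiescent, so transcripts of this programme are low unless hepatocytes are driven to divide, for example after partial hepatectomy, and resident or immigrant non-parenchymal cells also carry them.

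Total counts ran from 15773932 to 25844731 per library. A filter on low counts (at least 10 reads in enough libraries) left 13312 genes, with 31 of the 34 cell cycle genes among them. Levels are given as CPM, read counts relative to the TMM-scaled library total. One library, control 2, stood apart from the other controls on the first principal component of all genes (score 15.4, where the rest of the controls scored -49.1 to -42.1 and the sorbate libraries 21.9 to 37.8). The hepatocyte markers Alb, Apoa1, Ttr and Cyp2e1 were abundant in all 8 libraries, Alb for example at 45000 to 73400 CPM. B cell and T or NK cell markers summed to at most 1.78 and 5.08 CPM in any library.

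After sorbate, 3 subunits of the replicative helicase, Mcm3, Mcm4 and Mcm5, fell by 43.7% to 56.6%, and Ccne2, which encodes cyclin E2, rose 2.54-fold. The other 27 tested genes of the set did not pass the threshold, an adjusted p of 0.05 (edgeR, quasi-likelihood, Benjamini-Hochberg over all genes). The 4 calls are 12.9% of the 31 genes tested, beside 12.4% of all 13312 genes, a share near the background. Lower calls were 9.68% of the set against 6.3% of all genes, and higher calls 3.23% against 6.14%. In 5 of the 31 genes (16.1%), and in 17.7% of all genes, the ranges of the 2 groups were separate. The median log2 fold change was -0.23 in the set and -0.02 over all genes. The sign of the set's median was not the same in every fit. It was 0.08 with 1 surrogate variable as a covariate, which was not independent of treatment, and -0.41 to -0.09 in the others. Scaling by library size alone moved the set's median to -0.09, that of all genes to 0.11 and the split of calls from 818 higher and 838 lower to 1300 higher and 550 lower. In bulk tissue, fewer cells of a type and less RNA per cell cannot be told apart.

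**Figure D1:**
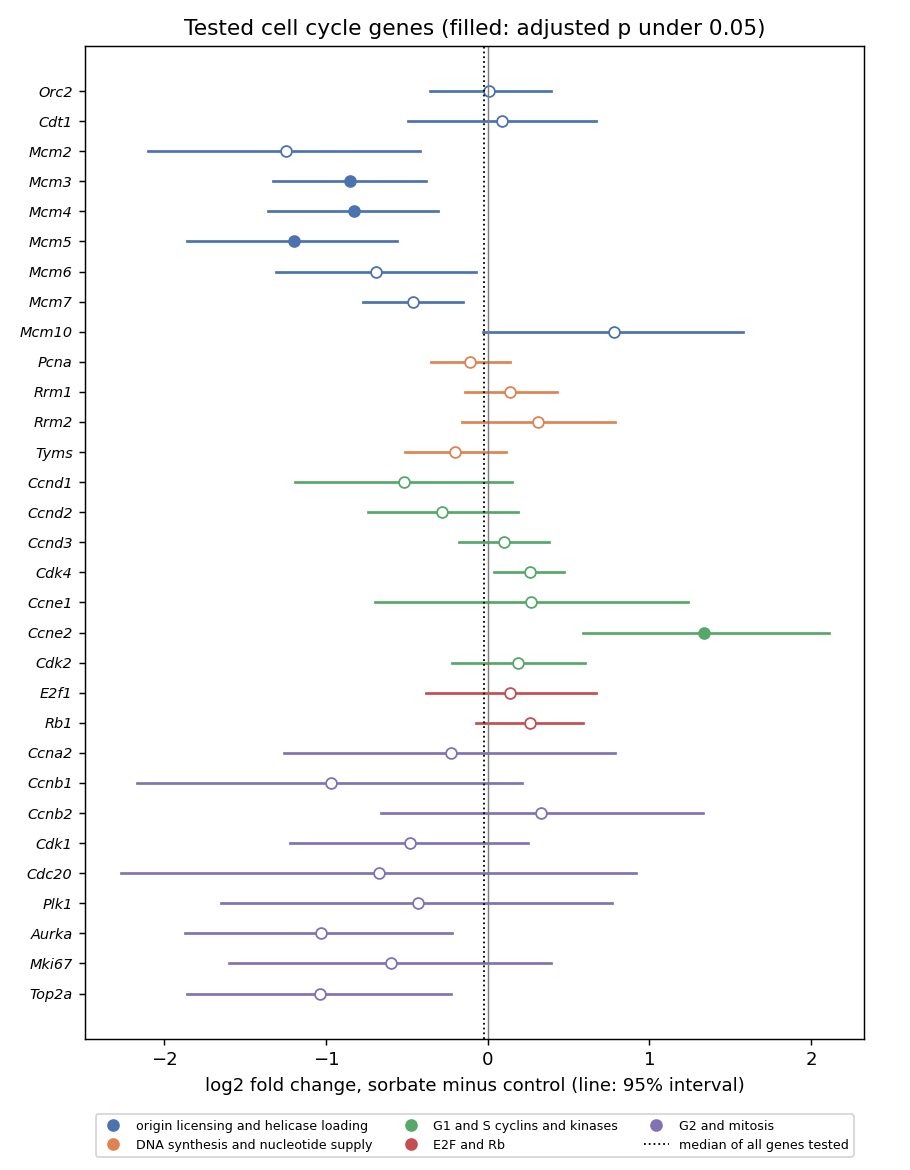
Log2 fold change, sorbate minus control, of the 31 tested cell cycle genes (x axis), ordered by role on the y axis, with points for estimates, lines for 95% intervals and filled points for genes past the threshold. The 6 MCM2-7 subunits lie to the left of 0 (-1.25 to -0.46), Ccne2 lies farthest to the right (1.34), and the intervals of the mitotic genes are wide.

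The control regions of the helicase genes are shown first because these genes were low together. Their promoters are textbook targets of E2F. RefSeq windows from 250 bases before to 50 bases after the start (GRCm38.p6) were found for 27 of the 34 genes. The other 7 are Mcm4, Ccnd1, Ccnd2, Ccne2, Rb1, Ccna2 and Aurkb. An E2F core, TTCCCGC or TTGGCGC on either strand (TTGGCGC can share its TTGG with a CCAAT box on the other strand), stood in 5 of the 6 windows of MCM2-7 (Mcm7 has 2 windows), in 12 of the 30 windows of the whole set (40%), and in 6.81% of all 32851 windows. A CCAAT box, CCAAT on either strand, stood in 23 of the 30 windows (76.7%) and in 37.4% of all windows. CHR elements, TTTGAA or TTCGAA on either strand, which mark many mitotic promoters, stood in 30% and 19.2%, and CACGTG E-boxes in 6.67% and 7.15%. The 200 bases before the start are printed 5′ to 3′ on the gene's strand, with E2F cores and CCAAT boxes in capitals. They are given for Mcm5 (chr8:75109309-75109508, plus strand), Mcm6 (chr1:128359706-128359905, minus strand), Mcm7 (chr5:138171884-138172083, minus strand), Mcm3 (chr1:20820313-20820512, minus strand) and Mcm10 (chr2:5012792-5012991, minus strand).
Mcm5: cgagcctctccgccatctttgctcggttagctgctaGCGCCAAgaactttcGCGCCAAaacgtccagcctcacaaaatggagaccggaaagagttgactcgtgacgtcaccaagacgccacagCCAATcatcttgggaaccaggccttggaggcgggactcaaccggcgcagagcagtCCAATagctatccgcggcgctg
Mcm6: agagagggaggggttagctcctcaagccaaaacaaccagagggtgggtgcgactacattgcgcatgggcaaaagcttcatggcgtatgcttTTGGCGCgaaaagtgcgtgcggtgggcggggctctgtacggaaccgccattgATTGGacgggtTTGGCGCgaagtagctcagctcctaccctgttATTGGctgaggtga
Mcm7: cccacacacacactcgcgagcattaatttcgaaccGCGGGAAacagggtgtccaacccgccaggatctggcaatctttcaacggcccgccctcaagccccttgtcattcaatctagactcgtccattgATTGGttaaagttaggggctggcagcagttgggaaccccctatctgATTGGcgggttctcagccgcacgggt
Mcm3: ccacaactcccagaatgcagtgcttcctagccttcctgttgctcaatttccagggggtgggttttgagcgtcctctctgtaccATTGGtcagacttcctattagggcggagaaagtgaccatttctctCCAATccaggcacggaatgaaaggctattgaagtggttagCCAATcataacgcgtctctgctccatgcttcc
Mcm10: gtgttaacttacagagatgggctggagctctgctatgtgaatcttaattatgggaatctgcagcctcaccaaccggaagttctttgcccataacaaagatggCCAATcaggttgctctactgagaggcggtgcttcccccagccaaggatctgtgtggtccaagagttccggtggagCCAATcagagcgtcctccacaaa
Mcm5 and Mcm6 each carry 2 E2F cores in this stretch and Mcm7 carries 1. Mcm3 has none here, and its 3 matches lie within the 50 bases after the start, where 2 of them overlap (at 39 and 42). The Mcm10 window holds no E2F core, and neither does that of Mcm2, whose estimate was the lowest of MCM2-7 (-1.25). Cores also stand in the windows of Cdt1, Rrm1 and Cdk2, with positive estimates (0.09, 0.14 and 0.19). They stand as well in those of Ccnb1, Cdk1 and Mki67, with negative estimates (-0.97, -0.48 and -0.60), and of Cdc6, which was not tested. A match of letters is a description of these windows and not evidence of binding.

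The MCM2-7 subunits, which form the ring that unwinds DNA at the fork, were lower with sorbate in all 6 estimates, and 3 of the 6 passed the test. They were singled out as a complex after their values were seen. Mcm5 (ENSMUSG00000005410, GRCm38 chromosome 8, 75109569 to 75128439) stood at 3.98, 2.40, 3.38 and 3.10 CPM in the controls and at 1.68, 1.87, 0.778 and 1.22 CPM with sorbate. Every sorbate library was below every control. Its level fell by 56.6%, or -1.20 on the log2 scale (SE 0.29, adjusted p = 0.0256).

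Mcm3 (ENSMUSG00000041859, chromosome 1, 20802968 to 20820312) had 3.93, 3.35, 3.63 and 3.10 CPM in the controls and 1.76, 2.13, 2.38 and 1.46 CPM with sorbate. Again the groups did not overlap, and controls varied little. Mcm3 changed by -0.85 on the log2 scale (SE 0.22, adjusted p = 0.0293). Mcm4 (ENSMUSG00000022673, chromosome 16, 15623897 to 15637400) had 5.38, 4.41, 5.90 and 3.15 CPM in the controls and 2.43, 3.38, 2.52 and 2.25 CPM with sorbate. Here control 4 lay below sorbate 2, so the groups overlapped. Mcm4 changed by -0.83 on the log2 scale (SE 0.24, adjusted p = 0.0457). No exon of another annotated gene overlaps those of Mcm3, Mcm4 or Mcm5.

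The remaining 3 subunits did not pass. Mcm2 had 3.34, 2.18, 3.48 and 2.75 CPM in the controls and 1.16, 2.27, 0.549 and 0.913 CPM with sorbate, an estimate of -1.25 (SE 0.38, adjusted p = 0.0545). Its estimate was the lowest of the 6, with sorbate 2 alone inside the control range. Mcm7 had 10.7, 11.2, 11.2 and 9.20 CPM against 9.04, 7.96, 6.86 and 6.82 CPM, with no overlap (-0.46, SE 0.14, adjusted p = 0.0548). Mcm6 had 7.02, 4.92, 6.62 and 4.13 CPM against 3.96, 4.93, 3.11 and 1.95 CPM (-0.69, SE 0.28, adjusted p = 0.131). The 95% intervals were -2.10 to -0.42 for Mcm2, -0.77 to -0.15 for Mcm7 and -1.31 to -0.07 for Mcm6. In Mcm7, 8.7% of the exon bases are shared with genes on the other strand, and 3.89% with the microRNAs Mir25 and Mir93 on its own.

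**Figure D2:**
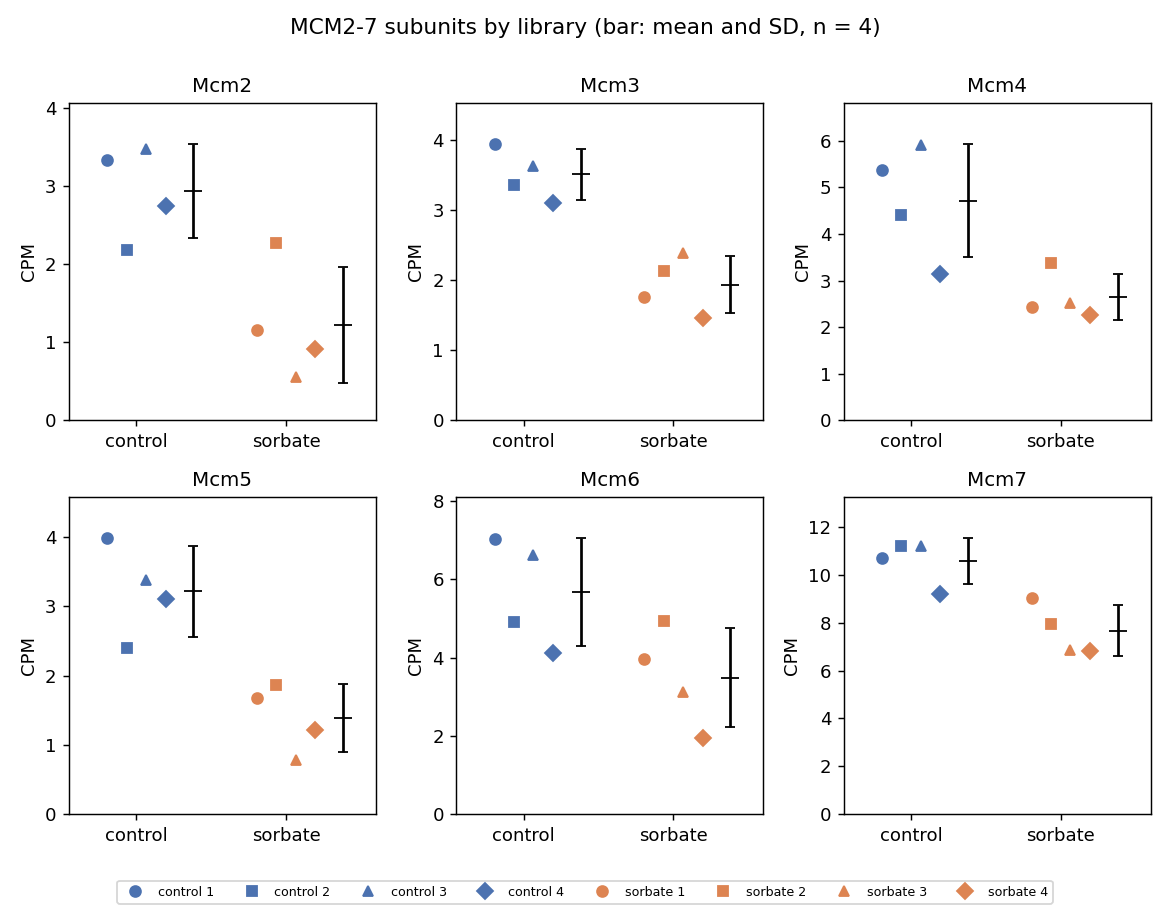
CPM of the 6 MCM2-7 subunits (y axis, from 0) in each control and sorbate library (x axis); each symbol is 1 library and the bar gives mean and SD, n = 4 per group. Mcm3, Mcm5 and Mcm7 show no overlap between the groups, while in Mcm2, Mcm4 and Mcm6 the groups overlap.

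The calls changed when single libraries were left out. Over all genes the share called changed as well, from 12.4% to between 5.16% and 8.44%, and to 29.4% without control 2. All 6 subunits kept a negative log2 fold change without any 1 of the 8 libraries. Mcm3 was called in 2 of these 8 fits (-0.96 to -0.75, adjusted p up to 0.0838), Mcm4 in 3 (-0.98 to -0.70, up to 0.139) and Mcm5 in 3 (-1.38 to -1.01, up to 0.0765). Among the 6 subunits, 0 were called without control 1, control 3 or sorbate 4, 1 without control 4, sorbate 1 or sorbate 3, 3 without sorbate 2 and 4 without control 2. With the surrogate variable the estimates of Mcm3, Mcm4 and Mcm5 were -0.80, -0.73 and -0.87 and none was called (adjusted p = 0.11, 0.166 and 0.15), whereas DESeq2 called 5 of the 6. With library size alone Mcm5 kept its call (-1.07), and Mcm3 (-0.73, adjusted p = 0.0502) and Mcm4 (-0.70, adjusted p = 0.0805) did not.

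Markers of some other cell types were also lower with sorbate, while those of stellate cells and hepatocytes were not. Over all genes, 6.3% were called lower and 6.14% higher. Hepatocyte markers summed to 69400 to 86900 CPM in the controls and 82100 to 107000 CPM with sorbate (1 of 8 higher). The 10 Kupffer cell and macrophage markers, Cd5l and Clec4f among them, had negative estimates throughout, 6 of 10 were lower, and their summed level was 273 to 659 CPM in the controls and 196 to 380 CPM with sorbate. Sinusoidal endothelial markers summed to 117 to 241 CPM and 122 to 149 CPM (1 of 7 lower), and stellate cell markers to 146 to 208 CPM and 149 to 232 CPM (0 of 7 called by edgeR or DESeq2, 0 with an unadjusted p under 0.05). Erythroid markers summed to 346 to 1410 CPM and 276 to 393 CPM (4 of 7 tested lower), and neutrophil markers to 1.01 to 24.4 CPM and 0.487 to 1.47 CPM (only S100a9 was tested, and it was lower). The monocyte list summed to 1340 to 2970 CPM and 1320 to 1820 CPM (1 of 4 tested lower). That sum was mostly Fn1, so it chiefly reads 1 gene and does not measure monocytes. Cholangiocyte markers, mostly Spp1, summed to 52 to 248 CPM and 27.6 to 42.4 CPM (2 of 4 tested lower). No marker of these lists was at 0 in all libraries.

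The summed MCM2-7 level was 34.4, 28.5, 34.2 and 25.4 CPM in the controls and 20, 22.5, 16.2 and 14.6 CPM with sorbate. The Kupffer marker sums of the same libraries were 509, 273, 659 and 658 CPM and 242, 380, 281 and 196 CPM. The MCM2-7 sums, of genes singled out after their values were seen, were separate between the groups. The Kupffer sums overlapped through control 2 alone, and the other controls (509 to 659 CPM) lay above all sorbate libraries. The part of other cell types in the result was not tested.

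**Figure D3:**
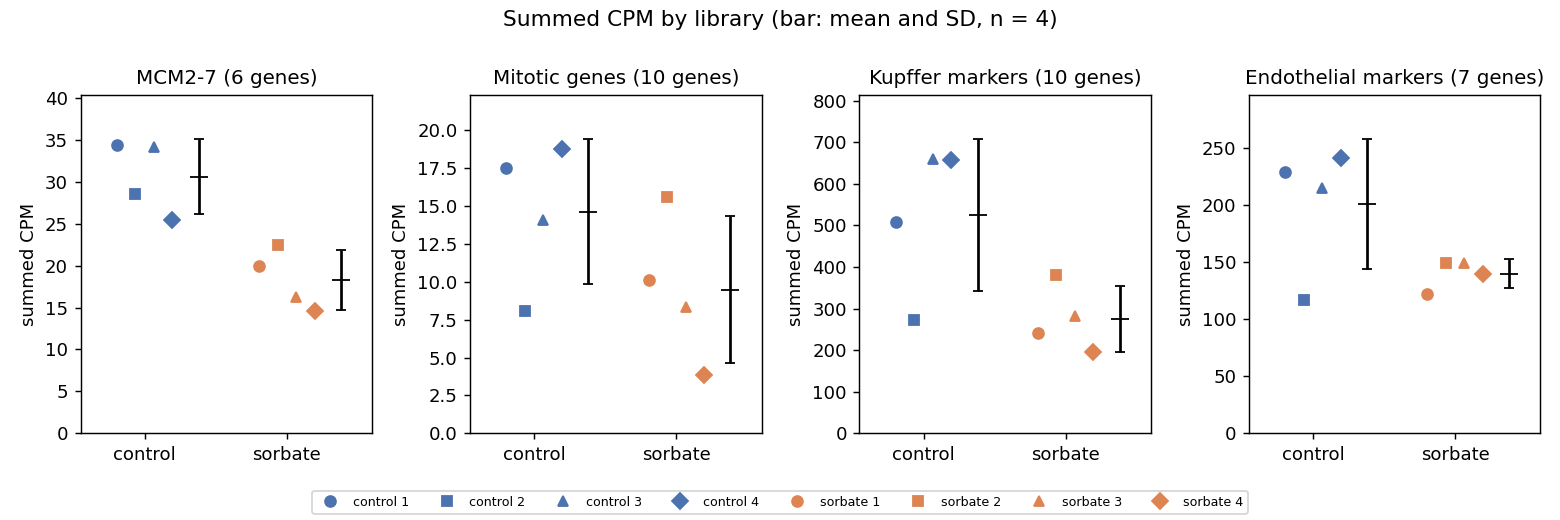
Summed CPM (y axes, from 0) of MCM2-7, the mitotic genes of the set, Kupffer cell and macrophage markers and sinusoidal endothelial markers in each library (x axis: group; bars: mean and SD, n = 4). The MCM2-7 sums of the groups do not overlap (25.4 to 34.4 and 14.6 to 22.5), and in the other 3 panels control 2 lies within or below the sorbate libraries.

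Of the factors that load the helicase, none gave a call. Orc2, a subunit of the origin recognition complex, stood at 5.08 to 7.59 CPM in the controls and 5.42 to 6.73 CPM with sorbate (log2 fold change 0.01, 95% interval -0.36 to 0.39). Cdt1, which brings MCM2-7 to the origin, stood at 1.34 to 2.36 and 1.38 to 2.18 CPM (0.09, interval -0.49 to 0.67). Orc1 and Cdc6 were too low to be tested, with 5 and 14 reads over all 4 controls and 4 and 12 reads over the sorbate libraries. At this depth no difference in them could be detected.

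Mcm10, which helps to activate the loaded helicase and is not part of the ring, had a positive estimate and wide spread. It had 46.3, 148, 98.6 and 51.7 CPM in the controls and 120, 129, 230 and 111 CPM with sorbate. Control 2 was above 3 of the 4 sorbate libraries, and the groups overlapped. Its estimate was 0.78 (SE 0.36, adjusted p = 0.183), and 1.18 without control 2, where it passed (adjusted p = 0.0126). It was 0.48 without sorbate 3 (adjusted p = 0.432) and 0.25 with the surrogate variable (adjusted p = 0.708). Per kilobase of exon, Mcm10 was the most abundant of the 31 genes, at 11.2 CPM per kb in the controls, beside 0.423 (Mcm2) to 2.39 (Mcm7) CPM per kb for the MCM2-7 genes. No annotated exon of another gene overlaps those of Mcm10 (chromosome 2, 4989714 to 5012791).

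**Figure D4:**
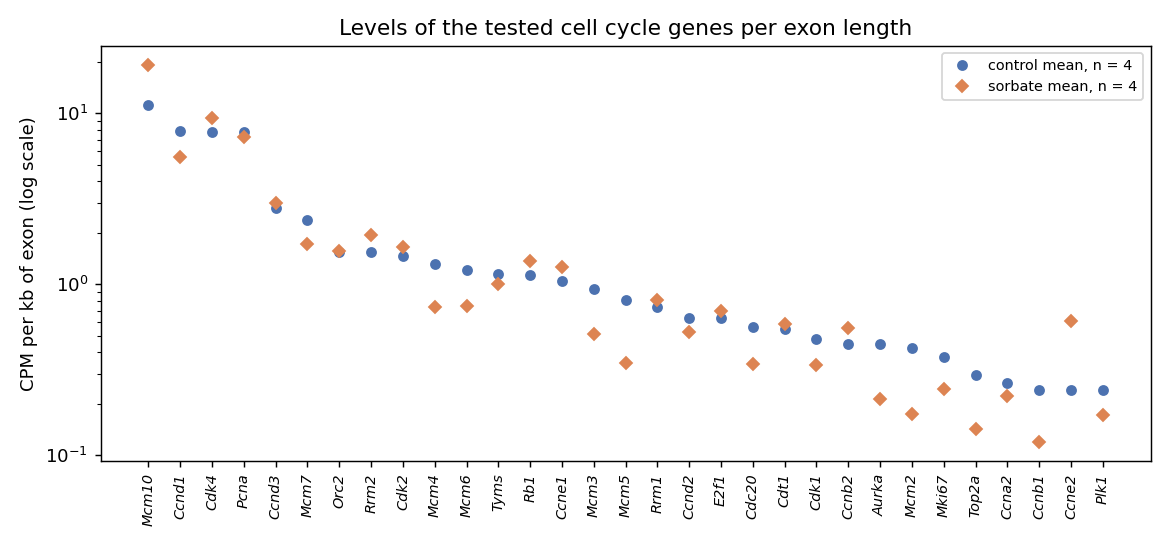
Mean CPM per kilobase of merged exon (y axis, log scale) of the 31 tested genes, ordered by the control mean (x axis: genes; circles: control, diamonds: sorbate, n = 4 each, spread not drawn). Mcm10 leads in both groups (11.2 and 19.2), and the 9 mitotic genes lie between 0.12 (Ccnb1 with sorbate) and 0.562 (Cdc20 in the controls).

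The genes of DNA synthesis and nucleotide supply gave no call in edgeR or DESeq2, and 0 of the 4 had an unadjusted p under 0.05. Pcna, the sliding clamp of the replicative polymerases, had 17.3, 18.6, 20.9 and 18.1 CPM in the controls and 15.5, 17.9, 19.6 and 16.6 CPM with sorbate. Its estimate was -0.11 (95% interval -0.35 to 0.14; 0.02 with library size alone), and the groups overlapped. Rrm1, the large subunit of ribonucleotide reductase, had 7.77, 9.05, 8.36 and 7.08 CPM against 9.27, 9.02, 9.47 and 7.85 CPM (0.14, interval -0.14 to 0.43). Rrm2, the small subunit, had 0.31 (interval -0.16 to 0.79), and Tyms, thymidylate synthase, had -0.20 (interval -0.51 to 0.11).

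Other replication genes, a list of 52 with 49 tested, held 2 higher and 3 lower genes (10.2% called, against 12.4% of all genes), with a median log2 fold change of -0.15. Tk1, thymidine kinase of the salvage route, had 5.18, 14.9, 3.72 and 3.10 CPM in the controls and 37.3, 23.2, 41.5 and 24.1 CPM with sorbate. All sorbate libraries were above all controls, control 2 being the highest control. Tk1 rose by 2.24 on the log2 scale (SE 0.44, adjusted p = 0.0109), and was called without any 1 library (2 to 2.99). Gmnn encodes geminin, which binds Cdt1 and blocks new licensing, and rose from 2.78 ± 0.916 to 6.42 ± 0.788 CPM (SD, n = 4; 1.21 on the log2 scale, SE 0.25, adjusted p = 0.0137). It too was called in all 8 fits with 1 library left out, and with the surrogate variable its estimate was 0.98 (adjusted p = 0.0766).

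The lower genes of this list work at the fork. Prim2, the regulatory subunit of primase, fell from 2.42 ± 0.335 to 1.32 ± 0.214 CPM (-0.88 on the log2 scale, SE 0.23, adjusted p = 0.0340). Rfc2, a subunit of the clamp loader, fell from 20.9 ± 2.72 to 15.0 ± 1.09 CPM (-0.48, SE 0.12, adjusted p = 0.0287). Fen1, the flap endonuclease that trims lagging strand fragments and the last of the 5, chosen after its values were seen, fell from 3.75 ± 0.631 to 2.03 ± 0.594 CPM (-0.87, SE 0.25, adjusted p = 0.0473). In Prim2, Rfc2 and Fen1 the groups did not overlap. Prim2 and Rfc2 were each called in 1 of the 8 fits with a library left out (adjusted p up to 0.0959 and 0.0889). How the call of Fen1 fared in those fits or with the surrogate variable was not examined.

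Among the G1 and S cyclins and kinases, 1 of 7 genes rose and 0 fell (14.3% called, beside 12.4% of all genes). Ccne2 (ENSMUSG00000028212, chromosome 4, 11191351 to 11204779) had 0.498, 1.51, 0.580 and 0.787 CPM in the controls and 1.87, 2.27, 1.97 and 2.43 CPM with sorbate. The groups did not overlap, and control 2 was the highest control. Ccne2 rose by 1.34 on the log2 scale (SE 0.34, adjusted p = 0.0302). Only the fit without control 2 called it among the 8 (1.77, adjusted p = 0.00105). In the other 7 it was at least 1.16 and missed the threshold (adjusted p up to 0.0968), as it did with the surrogate variable (0.90, adjusted p = 0.135). The gene had 10 to 51 reads per library, and 17.4% of its exon bases overlap Ints8 on the other strand, whose reads cannot be told apart where strand was not used in counting.

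Ccne1, the other E-type cyclin, had 5.08, 0.614, 2.85 and 2.61 CPM in the controls and 3.29, 3.25, 3.02 and 4.02 CPM with sorbate. The sorbate libraries lay close together, while control 1 lay above and the other controls below all of them (log2 fold change 0.27, 95% interval -0.70 to 1.24). Its estimate was -0.05 without control 2, 0.73 without control 1 and 1.71 with the surrogate variable, where it passed (adjusted p = 0.0187). The interval of Ccne1 overlaps that of Ccne2 (0.59 to 2.11), and the difference between the 2 paralogs was not tested.

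D-type cyclins receive mitogen signals, and Ccnd1 is the best known of them in liver regeneration. Ccnd1 had 56.2, 16.6, 41.5 and 35.0 CPM in the controls and 35.1, 26, 22 and 20.9 CPM with sorbate. The groups overlapped, with control 1 the highest and control 2 the lowest of all 8 libraries. The log2 fold change was -0.52 (SE 0.30, adjusted p = 0.285), and -0.75 without control 2, where it passed (adjusted p = 0.0133). It was -0.25 without control 1 (adjusted p = 0.621) and turned to 0.26 with the surrogate variable (adjusted p = 0.533). Ccnd2 stood at 4.08 to 6.98 and 4.04 to 5.81 CPM (-0.28, interval -0.74 to 0.19), and Ccnd3 at 19.5 to 28.8 and 25.9 to 27.0 CPM (0.10, interval -0.18 to 0.38). In Ccnd1, 23.4% of the exon bases are shared with a gene on the other strand.

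Cdk4, the partner of the D-type cyclins, had 25.7, 23.7, 23.8 and 28.4 CPM in the controls and 31.6, 31.7, 29.6 and 28.5 CPM with sorbate. The groups did not overlap, although control 4 and sorbate 4 nearly met. The estimate was 0.26 (SE 0.10, adjusted p = 0.113), and 0.38 with library size alone, where it passed (adjusted p = 0.0268). Cdk2, the partner of the E-type cyclins, stood at 7.62 to 11.7 and 7.55 to 12.5 CPM (0.19, interval -0.22 to 0.60).

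**Figure D5:**
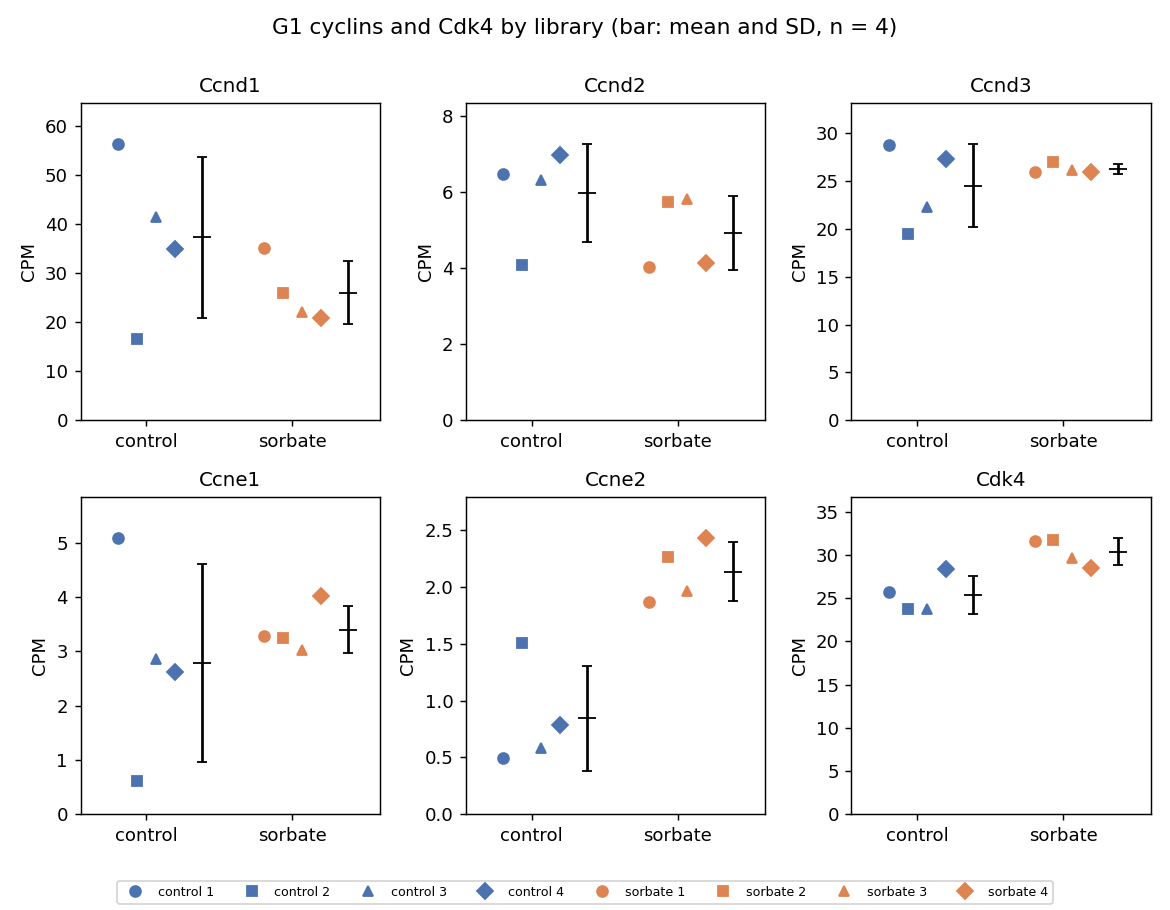
CPM of the D-type and E-type cyclins and Cdk4 (y axis, from 0) in each library (x axis: group; bars: mean and SD, n = 4). Ccne2 and Cdk4 show no overlap between groups, and control 2 (square) is the lowest library for Ccnd1 (16.6) and Ccne1 (0.614).

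E2f1 and Rb1 gave no call in edgeR or DESeq2, and neither had an unadjusted p under 0.05. E2f1, an activator of replication genes, had 1.94, 2.12, 2.13 and 1.82 CPM in the controls and 2.69, 2.53, 1.51 and 2.07 CPM with sorbate (log2 fold change 0.14, 95% interval -0.38 to 0.67). Rb1, its repressor, had 6.02, 7.88, 7.2 and 6.2 CPM against 9.19, 7.16, 7.55 and 8.76 CPM (0.26, interval -0.07 to 0.59). Among 16 tested genes of the other E2F, pocket protein and DREAM complex list, 2 rose and 0 fell. The share called was 12.5%, near the 12.4% of all genes. Rbl2, the pocket protein p130 of quiescent cells, rose from 28.5 ± 8.88 to 45.5 ± 7.23 CPM (0.68, SE 0.20, adjusted p = 0.0487). Tfdp2, a dimer partner of E2F proteins, rose from 12.8 ± 4.92 to 22.2 ± 3.27 CPM (0.79, SE 0.23, adjusted p = 0.0452). In both, control 2 lay above sorbate 2, and the calls held in 2 and 1 of the 8 fits without 1 library.

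Mitotic genes had low counts, some near the detection limit, and gave no call. Counts of the called helicase genes were also low, at 24 to 79 (Mcm3), 37 to 122 (Mcm4) and 17 to 80 (Mcm5) reads per library. Of the 10 mitotic genes, 9 were tested, with 0 to 109 reads per library. A negative estimate was found in 8 of the 9 (median -0.60), beside 52.2% of all genes. With edgeR 2 of the 9 had an unadjusted p under 0.05, beside 3928 of all 13312 genes, and DESeq2 called 1, Top2a. Mki67, the proliferation antigen Ki-67, had 5.43, 1.45, 3.38 and 4.87 CPM in the controls and 2.54, 4.18, 2.24 and 0.913 CPM with sorbate. The groups overlapped widely, with control 2 among the low libraries and sorbate 2 among the high ones (log2 fold change -0.60, 95% interval -1.60 to 0.39).

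Top2a, the topoisomerase of replicating chromosomes, had 3.58, 1.23, 2.66 and 3.25 CPM in the controls and 1.23, 2, 1.14 and 0.791 CPM with sorbate (-1.04, SE 0.37, adjusted p = 0.0895). Aurka, a spindle kinase, stood at 0.726 to 1.64 and 0.304 to 0.785 CPM (-1.03, SE 0.37, adjusted p = 0.0914). Without control 2 both passed (-1.26, adjusted p = 0.00845, and -1.18, adjusted p = 0.0316). With the surrogate variable neither did (Top2a -0.26, adjusted p = 0.732, and Aurka -0.58, adjusted p = 0.528). Estimates of the other mitotic genes ran from -0.97 (Ccnb1, cyclin B1) to 0.33 (Ccnb2, cyclin B2), with Ccna2, cyclin A2, at -0.23 (interval -1.26 to 0.79). Cdk1, the mitotic kinase, had 1.74, 2.12, 2.37 and 3.15 CPM in the controls and 1.35, 2.53, 1.92 and 0.852 CPM with sorbate, which overlap (-0.48, interval -1.22 to 0.25). Plk1, a kinase of mitotic entry, had -0.43 (-1.65 to 0.77), and Cdc20, an activator of the anaphase-promoting complex, -0.67 (-2.27 to 0.92). Aurkb was not tested, with 25 reads over the controls and 20 over the sorbate libraries. The intervals of Mki67, Ccna2, Ccnb1 (-2.17 to 0.21), Cdk1, Cdc20 and Plk1 hold both 0 and the -1.20 estimated for Mcm5.

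The summed level of the 10 mitotic genes was 17.5, 8.10, 14.1 and 18.8 CPM in the controls and 10.1, 15.6, 8.37 and 3.83 CPM with sorbate. Control 2, the lowest control, thus lay within the sorbate range, and sorbate 1, 2 and 3 lay within the control range. Sorbate 2 was the highest sorbate library. These places of control 2 and sorbate 2 were also seen in the Kupffer marker sums (273 and 380 CPM). They were seen as well in the erythroid (346 and 393 CPM), cholangiocyte (52 and 42.4 CPM) and stellate cell sums (146 and 232 CPM). The hepatocyte, monocyte and MCM2-7 sums did not show them. The reason was not tested. Of 29 tested genes in the list of other mitotic genes, 1 fell and 0 rose (3.45% called, beside 12.4% of all genes). Their median was -0.20. The one that fell was Bub3, a spindle checkpoint protein, from 26.5 ± 3.05 to 20.5 ± 0.881 CPM (-0.37, SE 0.11, adjusted p = 0.0486), and it was called in 1 of the 8 fits without 1 library.

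Larger fold changes were seen in 2 regulators outside the set, Wee1 and Cdkn1a. Wee1, the kinase that holds Cdk1 inactive, had 1.10, 1.73, 1.06 and 0.295 CPM in the controls and 11.2, 13, 15.6 and 17.9 CPM with sorbate (3.79, SE 0.35, adjusted p = 0.00035). Cdkn1a, the CDK inhibitor p21, had 107, 6.31, 75.8 and 68.5 CPM in the controls and 2.62, 1.56, 0.823 and 1.70 CPM with sorbate (-5.25, SE 0.74, adjusted p = 0.00265). In both genes the groups did not overlap, and both were called without any 1 library. With the surrogate variable both stayed called, at 3.36 for Wee1 and -3.02 for Cdkn1a. Ccng1, cyclin G1, a p53 target, fell from 43.4 ± 3.70 to 33.2 ± 2.11 CPM (-0.39, SE 0.10, adjusted p = 0.0320), and Gadd45a, a growth arrest gene, rose from 2.08 ± 0.523 to 4.68 ± 1.89 CPM (1.17, SE 0.30, adjusted p = 0.0301). These calls held in 2 and 4 of the 8 fits without 1 library. In the list of other cyclins, kinases and phosphatases 1 of 14 tested genes rose and 1 fell. In the list of CDK inhibitors and p53 arrest genes 1 of 14 rose and 1 fell. The share called was 14.3% in each list, near the 12.4% of all genes. With the surrogate variable Tk1 stayed called (1.63), while Rfc2, Prim2, Rbl2, Tfdp2, Bub3, Ccng1 and Gadd45a were not (adjusted p from 0.0541 for Prim2 to 0.306 for Bub3).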

How the data were processed

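Raw counts, whole numbers of reads per gene, were deposited by the authors for 55487 genes and are not normalized, judging from their values. Per the submitters' processing notes, FastQC, HISAT2 2.1.0, Subread and edgeR were used with the build GRCm38; the counting settings, annotation release and use of strand are not stated in these sources. Columns were matched to samples by name, and 4 per-sample columns that match no sample were not used. Replicate numbers follow accession order and pair nothing. All pairs of libraries within a group differed beyond counting error (chi-square per gene of 24.8 to 238, averaged over the genes tested).

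Genes were filtered with filterByExpr (count minimum 10), scaled by TMM and tested with edgeR 4.0.16 (R 4.3.3; quasi-likelihood test, two-sided, no covariate, Benjamini-Hochberg adjustment over all 13312 genes, threshold 0.05). Log2 fold changes use a prior count of 0.125; standard errors and 95% intervals come from the unshrunk coefficient and the F statistic. The function was tested on simulated counts. Exon lengths, coordinates and overlaps come from GENCODE vM21 (GRCm38), where all 34 genes were found; promoters come from RefSeq.

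All 34 genes are accounted for, with values per library for those called or, in a role without a call, for the 2 of highest mean count; from each further list up to 4 called genes with the lowest p are named, with Cdkn1a and Wee1. The genes and lists were chosen with earlier results of these data known. Alternatives were library size alone, RLE factors, DESeq2 1.42.0, no filter, 1 surrogate variable (sva 3.50.0), a threshold of 0.1 and leaving out each library, with the tested genes kept.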

Additional observations from a re-analysis of the deposited data

Results flagged for a closer look

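In each group of 4 libraries, the gap between the most extreme library and its nearest neighbour was compared with the range of the group. Among 88 groups (44 genes in both treatments) 3 exceeded Dixon's 95% limit, and chance alone exceeds it in about 1 of 20 groups. Mcm10 stood at 230 CPM in sorbate 3, against 111 to 129 CPM in the other sorbate libraries (gap 0.849 of the range). Rbl2 stood at 41.7 CPM in control 2, against 23.5 to 25.1 CPM in the other controls (0.912). Rfc2 stood at 16.9 CPM in control 2, against 22.1 to 22.6 CPM in the other controls (0.912).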

How the results depend on the processing

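No paired analysis was possible because the replicate numbers follow accession order and the labels pair no libraries. Of the 34 genes, 1 higher and 3 lower were called, against 2 and 1 with library size alone, 1 and 6 with DESeq2, 1 (Ccne1, 1.71) and 0 with the surrogate variable, 1 and 7 at a threshold of 0.1, and 1 and 4 without the filter. The surrogate variable was 0.471 in control 2, 0.0844 to 0.305 with sorbate and -0.532 to -0.365 in the other controls, so it is not independent of treatment. Leaving out 1 library gave 0 to 2 higher and 0 to 7 lower. No gene of the set was called by edgeR without control 1, control 3 or sorbate 4, where 7, 8 and 10 had an unadjusted p under 0.05. With all libraries 10 of the 31 tested genes had one, beside 3928 of all 13312 genes. The highest counts of calls, 2 higher and 7 lower, were reached without control 2. Over all genes, 818 higher and 838 lower became 1300 and 550 with library size alone, 313 and 293 with the surrogate variable, 1337 and 1414 at a threshold of 0.1, and 331 to 2036 and 343 to 1873 without 1 library, again highest without control 2. The cause of these shifts was not tested. RLE factors kept the same 4 genes called.

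Estimates of genes that were not called changed sign as follows. With the surrogate variable they were 0.26 for Ccnd1, 0.05 for Ccnd2, -0.01 for Cdk2, 0.57 for Ccna2, 0.13 for Cdc20, 0.08 for Plk1 and 0.39 for Mki67. Pcna was 0.02 with library size alone. Without 1 library, Orc2 ranged from -0.05 to 0.15 (negative also without control 1, at -0.04), Cdt1 from -0.01 to 0.28 (0 without control 2), Ccne1 from -0.05 to 0.73, Ccna2 from -0.54 to 0.05 and Plk1 from -0.75 to 0.06. MCM2-7 had 6 negative estimates under every alternative run. Mitotic genes and Orc1, Cdc6 and Aurkb are limited by depth, since 1 read equals 0.0374 to 0.0609 CPM. Mcm3, Mcm4, Mcm5 and Ccne2 had few reads as well.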

Other observations

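Genes that feed into cyclin D1, a list of 21 mitogen and Wnt signalling genes with 20 tested, held 2 higher and 0 lower genes. The share called was 10%, beside 12.4% of all genes. Met, the receptor of hepatocyte growth factor, rose from 73.2 ± 14.7 to 120 ± 23.9 CPM (SD, n = 4; log2 fold change 0.71, SE 0.17, edgeR adjusted p = 0.0255), with no overlap between the groups. Ccn1, a matricellular protein and YAP target, rose from 4.61 ± 2.18 to 9.81 ± 1.06 CPM (1.09, SE 0.27, adjusted p = 0.0267). These calls held in 3 and 1 of the 8 fits without 1 library, and neither held with the surrogate variable (0.45, adjusted p = 0.144, and 0.73, adjusted p = 0.0867). Myc, Hgf and Egfr were not called and were chosen after their values were seen. Myc stood at 59.8 CPM in sorbate 3, the library with the most Mcm10, and at 1.13 to 9.27 CPM in the other 7 libraries. Hgf, the ligand of Met, had an estimate of -0.60 (adjusted p = 0.17), and Egfr, a further mitogen receptor of hepatocytes, -0.34 (adjusted p = 0.422).

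Control 2 took different places among the controls. It was the control nearest to the sorbate libraries in Cdkn1a (6.31 CPM, others 68.5 to 107), Tk1 (14.9 CPM, others 3.10 to 5.18), Rbl2 and Tfdp2. In Gmnn it was also the nearest, but at 3.52 CPM it lay close to the other controls (1.44 to 3.15 CPM; sorbate 5.72 to 7.16 CPM). Among the MCM2-7 subunits, control 2 was the control nearest to the sorbate libraries in Mcm2 (2.18 CPM, others 2.75 to 3.48) and Mcm5 (2.40 CPM, others 3.10 to 3.98). It was not the lowest control in Mcm4, Mcm6 or Mcm7. In Mcm3 it stood at 3.35 CPM, while the other controls ranged from 3.10 to 3.93 CPM.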
